A study of Mus musculus with 10 samples.

Results

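Emx1, Emx2, Pax6, Lhx2, Fezf2 and Six3 are transcription factor genes that divide the embryonic forebrain into territories, and their RNA was compared between the caudal and the rostral end of the mouse neocortex at E11.5. Members were all probes whose only gene symbol was 1 of these 6 names, whatever their values. This gave 6 genes of 15063 with a probe, and 7 probes of 21766, with 2 for Pax6 and 1 for each other gene, and all 7 were among the 11855 probes that could be tested. Caudal and rostral pieces of the neocortex were taken from MF1, an outbred stock, and from C57 (C57Bl\6), an inbred strain, at the same age and with no treatment. Each pool held material of 3 embryos per the sample labels, taken within a litter, and its caudal and rostral RNA were labelled with Cy5 and Cy3 and hybridised together on an array and, with the dyes exchanged, on another. There were 3 MF1 pools on 6 arrays and 2 C57 pools on 4 arrays, which limits the precision.

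Ratios are given on the log2 scale as caudal over rostral, centred on the median probe of each array, so that a positive value means relatively more RNA at the caudal end. The direction is likely rather than stated: the Cy5 channel was read as the numerator. With that reading, Nr2f1, a nuclear receptor gene known for caudal expression, lay on the caudal side on 10 of 10 and 8 of 10 arrays with its 2 probes, and the FGF feedback genes Spry1 and Dusp6, known for rostral expression, lay on the rostral side on 10 of 10 arrays each. The FGF targets Etv1, on 9 of 9 arrays, and Etv5, on 8 of 10 and 7 of 10 arrays with its 2 probes, did so as well. MF1 arrays gave a ratio for 13723 to 18288 probes and C57 arrays for 20191 to 20870. The 2 arrays of a pool, turned to the same direction, had Pearson (and Spearman) correlations of -0.08 (-0.01), -0.03 (0.09) and -0.06 (0.17) in the MF1 pools and of 0.01 (0.17) and -0.12 (-0.08) in the C57 pools across the tested probes, which are not independent replicates. These values still hold the dye effect, which has opposite sign in the turned arrays. A fit with strain and dye terms gave a consensus correlation within a pool of 0.306, from residuals of the probes measured on all 10 arrays. That is another measure than the correlations across probes above and cannot be set against them. The table holds ratios only, so no expression level can be given for a gene, and fewer cells of a type cannot be told apart from less RNA per cell.

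The cortex receives its areas from signalling centres at its edges, which set graded amounts of transcription factors across the neuroepithelium. Emx2, a homeobox gene, is known for high expression at the caudal and medial side, and Pax6, a paired-domain homeobox gene, for the opposite gradient with high expression at the rostral and lateral side. The 2 proteins are known to limit each other in mouse, and loss of either shifts cortical areas. Emx1 is the close relative of Emx2 and marks the dorsal telencephalon. Lhx2 is a LIM homeobox gene that gives the cortical primordium its identity and keeps it apart from the cortical hem. Fezf2 is a zinc finger gene, not a homeobox gene, needed in the rostral forebrain and later for neurons that project out of the cortex. Six3 is a homeobox gene of the most rostral forebrain and of the eye field that represses Wnt genes.

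None of the 7 probes differed between the caudal and the rostral end beyond the spread between pools. Nor did any probe on the array: the limma fit over 11855 probes called 0, or 0%, at an adjusted p under 0.05 for the mean of both strains, and the smallest adjusted p was 0.321. At an unadjusted p under 0.05 it called 542 probes, or 4.57%, with 270 positive and 272 negative, and 0 of the 7. The estimates of the members ranged between -0.03 and 0.52 with a median of 0.07, against a median of 0.04 over all tested probes, and 6 of the 7 were positive. Emx1, Emx2 and the probes of Pax6 lay close to 0, and Lhx2, Fezf2 and Six3 lay on the caudal side.

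**Figure D1:**
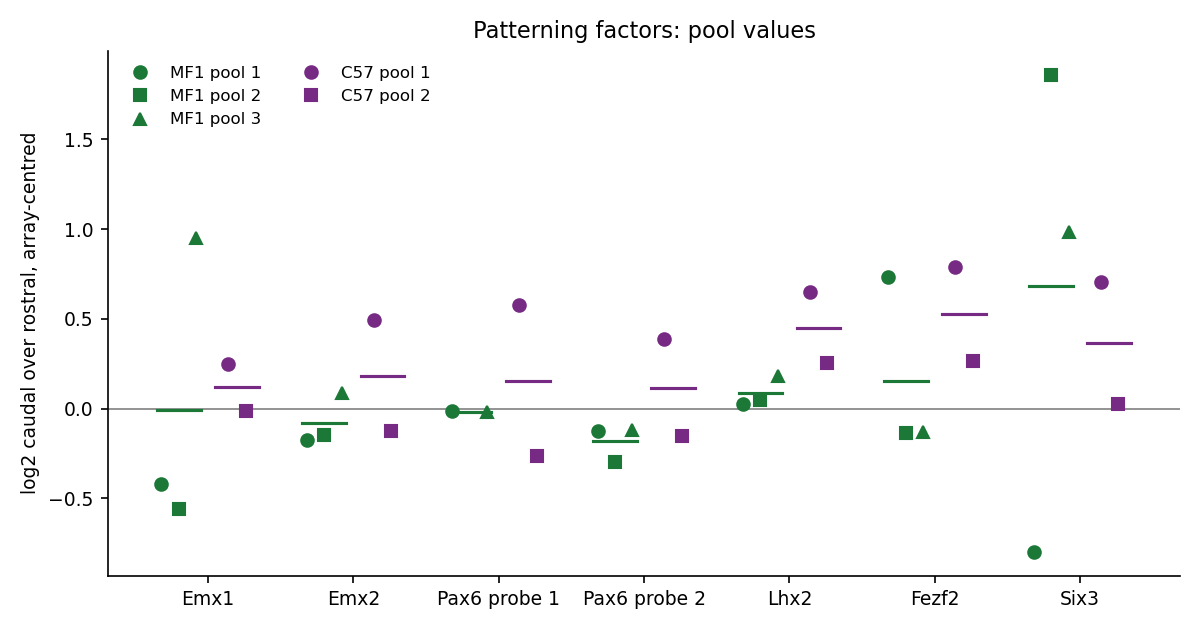
Log2 caudal over rostral ratio of each member probe (vertical axis, array-centred), with a point for each MF1 pool (green, left) and each C57 pool (purple, right) and a short bar for the mean of each strain. Lhx2 lies above 0 in all 5 pools, while Six3 spreads between -0.80 and 1.86.

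Emx2 had ratios of -0.18, -0.15 and 0.09 in the MF1 pools and of 0.49 and -0.13 in the C57 pools. The strains overlapped with the arrays centred, and C57 pool 1 was the highest of the 5. Its estimate was 0.05 ± 0.14 (limma SE, n = 5 pools, 95% interval -0.31 to 0.41, adjusted p = 0.997), which as a fold is 1.04 with an interval of 0.81 to 1.33. For a gene known for a caudal gradient, the interval reached no further than a 1.33-fold caudal excess between the ends.

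Pax6, known for the opposite gradient, was measured by a pair of probes, CG_Mm_3001006_1 and CG_Mm_EXT_3110714_1. Probe 1 had ratios of -0.01 and -0.02 in MF1 pools 1 and 3 and of 0.58 and -0.27 in the C57 pools. MF1 pool 2 was left out for this probe because the array with rostral RNA in Cy5 gave no value. Probe 2 had ratios of -0.12, -0.30 and -0.12 in the MF1 pools and of 0.39 and -0.16 in the C57 pools. With centring, 4 of its 5 pools were thus on the rostral side. Without it, MF1 pool 3 was at 0.002 and both C57 pools were at 0.21. The estimate was 0.07 ± 0.19 (limma SE, n = 4 pools, 95% interval -0.44 to 0.58, adjusted p = 0.998) with probe 1 and -0.03 ± 0.14 (n = 5 pools, interval -0.37 to 0.31, adjusted p = 0.9995) with probe 2. With centring, both probes had C57 pool 1 as the only clearly caudal pool. They differed from each other by a root mean square of 0.132 over the 4 pools they share.

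The ratios of Emx2 and Pax6 lay close to each other in these pools. With centring, MF1 pool 3 was the only one where they had opposite signs, at 0.09 for Emx2 against -0.02 and -0.12 for the Pax6 probes. Without centring, MF1 pool 3 was at 0.21 for Emx2 and at 0.1015 and 0.002 for the Pax6 probes, and signs were the same in every pool. The root mean square difference between Emx2 and Pax6 was 0.126 over 4 pools with probe 1 and 0.126 over 5 pools with probe 2, which is as close as the probes of Pax6 were to each other. Emx2 minus Pax6 averaged -0.0001 ± 0.15 with probe 1 (SD, n = 4 pools, 2 of 4 positive), where the exact two-sided sign-change test gave p = 1 and could give no less than 0.125. With probe 2 the difference averaged 0.09 ± 0.10 (SD, n = 5 pools, 4 of 5 positive), and the exact two-sided sign-change test gave p = 0.188, adjusted p = 0.562 over the 3 such differences computed, with 0.0625 the smallest p that 5 pools allow. These are the promoter windows of the genes known for opposite gradients, 120 bases before the annotated start from RefSeq on GRCm38.p6, plus strand, with CCAAT in capitals: Emx2 at chr19:59458570-59458689, and Pax6, which has 2 annotated starts in the table, at chr2:105668776-105668895 (window 1) and chr2:105682343-105682462 (window 2).
Emx2: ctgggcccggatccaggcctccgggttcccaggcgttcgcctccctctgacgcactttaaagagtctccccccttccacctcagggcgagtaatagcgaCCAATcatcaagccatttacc
Pax6 window 1: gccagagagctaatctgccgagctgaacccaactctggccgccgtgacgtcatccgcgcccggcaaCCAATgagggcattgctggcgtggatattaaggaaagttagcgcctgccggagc
Pax6 window 2: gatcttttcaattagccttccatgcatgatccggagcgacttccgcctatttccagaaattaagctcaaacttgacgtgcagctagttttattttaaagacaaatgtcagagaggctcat

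A pair of motifs was searched on both strands of the full windows of 300 bases (250 before to 50 after the start), the CCAAT box (CCAAT, or ATTGG on the other strand) and a homeodomain core (TAATTA, its own reverse complement). The letters of the motifs do not overlap each other. The 6 genes matched 8 windows in the RefSeq table. CCAAT was in 3 of the 8, those of Emx2, of Pax6 window 1 and of Six3, and in 37.4% of all 32851 promoter windows of the table. It stood 21 bases before the start of Emx2 and 54 before that of Pax6 window 1. TAATTA was in 1 of the 8, that of Emx2 at base 37 after the start, past the printed stretch, and in 5.29% of all windows. A match describes these letters only.

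Emx1, the relative of Emx2, had ratios of -0.42, -0.56 and 0.95 in the MF1 pools and of 0.25 and -0.02 in the C57 pools. The MF1 pools lay on both sides of the C57 pools. Its estimate was 0.06 ± 0.26 (limma SE, n = 5 pools, 95% interval -0.58 to 0.69, adjusted p = 0.9995). Emx1 minus Emx2 averaged 0.02 ± 0.51 (SD, n = 5 pools, 2 of 5 positive), and the exact two-sided sign-change test gave p = 1. Emx1 had a residual SD of 0.690 between pools, which was more than that of 81.1% of the tested probes, against 0.279 for Emx2 and a median of 0.350 over all tested probes.

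Lhx2 had ratios of 0.03, 0.05 and 0.18 in the MF1 pools and of 0.65 and 0.25 in the C57 pools. It was the only member on the caudal side in all 5 pools, as were 521 of 8924 probes measured in 5 pools, or 5.84%. Without centring of the arrays, Lhx2 was at -0.16 in MF1 pool 1 and no member was positive in all its pools. Its estimate was 0.27 ± 0.12 (limma SE, n = 5 pools, 95% interval -0.04 to 0.58, adjusted p = 0.980), a 1.21-fold ratio with an interval of 0.97 to 1.49. Lhx2 varied least of the members, with a residual SD of 0.176, and 16.1% of tested probes varied less. On single arrays it was positive on 8 of 10, with a range of -0.27 to 0.88.

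Fezf2 had ratios of 0.74, -0.14 and -0.13 in the MF1 pools and of 0.79 and 0.27 in the C57 pools. MF1 pool 1 lay with the C57 pools, away from the other MF1 pools. Its estimate was 0.34 ± 0.19 (limma SE, n = 5 pools, 95% interval -0.13 to 0.81, adjusted p = 0.980), a 1.27-fold ratio with an interval of 0.91 to 1.76. In percentile terms 91.2% of the tested probes had a lower estimate than Fezf2 and 86.9% a lower one than Lhx2. Both are genes for which the caudal side held the larger value here, without passing the test.

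Six3 had ratios of -0.80, 1.86 and 0.99 in the MF1 pools and of 0.71 and 0.03 in the C57 pools. This gene of the rostral forebrain had the highest estimate of the 7, 0.52 ± 0.40, and also the widest error (limma SE, n = 5 pools, 95% interval -0.47 to 1.51, adjusted p = 0.980). As a fold this is 1.44 with an interval of 0.72 to 2.85. Its residual SD of 1.14 was more than that of 93.9% of the tested probes, and the MF1 pools alone spanned the whole range of the 5. Neither the rostral nor the caudal side can be assigned to Six3 from these pools.

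**Figure D2:**
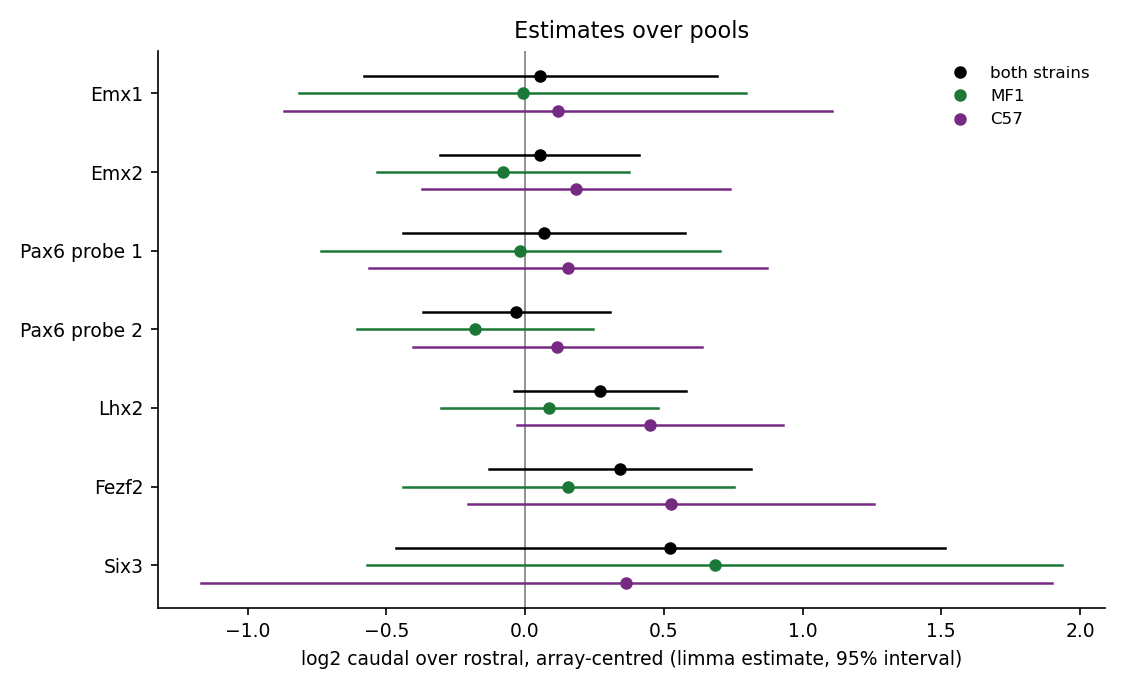
limma estimates of the log2 caudal over rostral ratio (horizontal axis, array-centred) with 95% intervals for each member probe, for the mean of both strains (black), MF1 (green) and C57 (purple). Every interval includes 0, and that of Lhx2 for both strains starts at -0.04.

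Over both strains the highest estimates were those of Six3 at 0.52, Fezf2 at 0.34 and Lhx2 at 0.27. Then came probe 1 of Pax6 at 0.07, Emx1 at 0.06, Emx2 at 0.05 and probe 2 of Pax6 at -0.03. The 95% interval of each of the 7 contained the estimate of the next in the order. These intervals describe single probes, while the members share the same pools, so they do not settle the order. Pool by pool, Lhx2 lay above Emx2 and both probes of Pax6 in each pool with values for both. These differences of Lhx2 from Emx2 and Pax6 were not tested. Emx2, probe 2 of Pax6 and Lhx2 had intervals narrower than those of the other members.

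Both dye orders of each pool show how far single arrays bear on these values. Emx1 was the member with the widest mean gap between the dye orders. Its arrays with caudal RNA in Cy5 gave 1.45, -0.34 and 1.54 in the MF1 pools and 0.53 and 0.16 in the C57 pools, while those with rostral RNA in Cy5 gave -2.29, -0.77 and 0.36 in the MF1 pools and -0.03 and -0.19 in the C57 pools. The first order was the higher one in all 5 pools, by 1.25 on average, and 92.4% of tested probes had a smaller gap. MF1 pool 1 weighs most in this mean, with a gap of 3.745, against 0.35 to 1.18 in the other pools. Averaging the orders takes out a dye effect that is the same in both, and in MF1 pool 1 the mean of Emx1 is that of a large positive and a large negative value.

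Six3 differed between the dye orders in no fixed direction. MF1 pool 2 gave 0.34 with caudal RNA in Cy5 and 3.38 with rostral RNA in Cy5, MF1 pool 1 gave 0.08 and -1.68, and MF1 pool 3 gave 2.18 and -0.21. The C57 pools gave 0.82 and 0.59 in pool 1 and -0.32 and 0.37 in pool 2, in the same order of dyes. A single array therefore carried most of the value in each MF1 pool. Probe 1 of Pax6 averaged -0.26 with caudal RNA in Cy5 and 0.38 with rostral RNA in Cy5, so the dye orders of this probe stood on opposite sides of 0, as they did in 3 of its 4 pools.

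Fezf2 and probe 2 of Pax6 had the same sign in both dye orders in 4 of 5 pools each. The order means of probe 2 still lay on opposite sides of 0. They were 0.13 with caudal RNA in Cy5 and -0.25 with rostral RNA in Cy5, and 57.6% of tested probes had a smaller gap. Arrays with caudal RNA in Cy5 gave the higher ratio of probe 2 in all 5 pools. For Fezf2 the order means were 0.25 with caudal RNA in Cy5 and 0.35 with rostral RNA in Cy5, and 20.0% of tested probes had a smaller gap. Lhx2 averaged 0.29 with caudal RNA in Cy5 and 0.17 with rostral RNA in Cy5, with the same sign in both orders in 3 of 5 pools. Emx2 averaged 0.11 and -0.05 in the same orders, with the same sign in 1 of 5 pools.

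**Figure D3:**
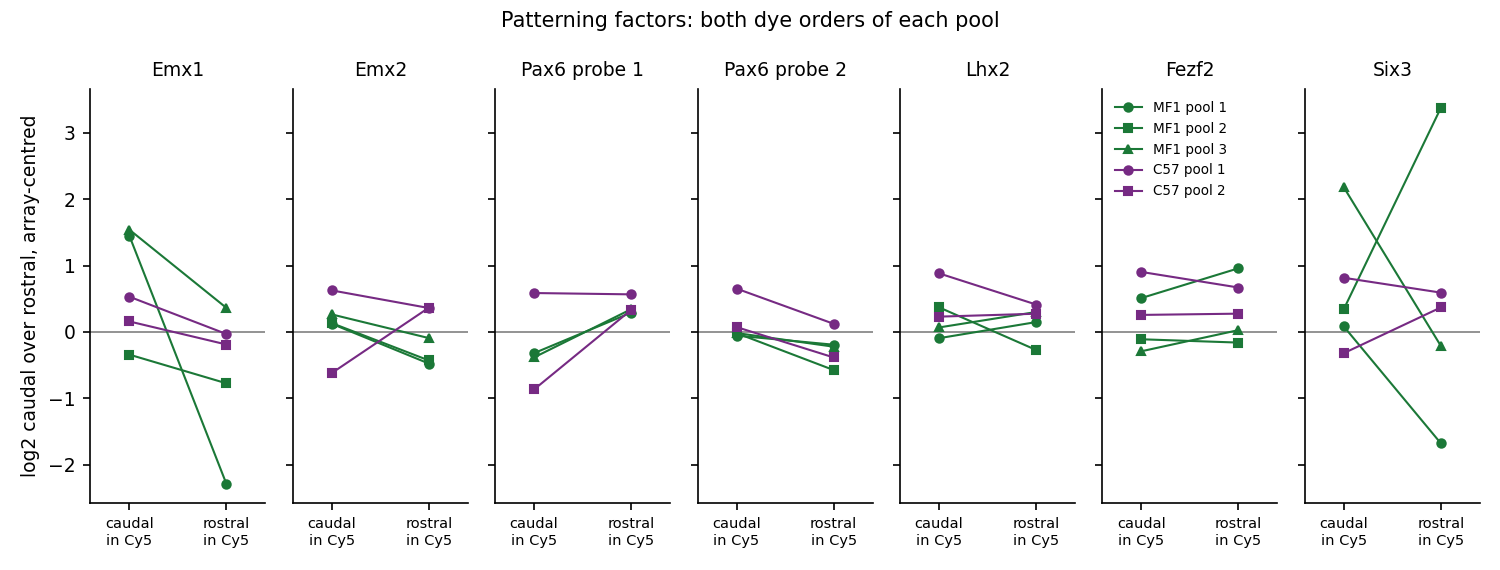
Log2 caudal over rostral ratio on each array (vertical axis, array-centred), with the array that had caudal RNA in Cy5 at the left of each panel and the array with rostral RNA in Cy5 at the right, a line for each pool in green (MF1) or purple (C57). Level lines mean that both arrays gave the same ratio, as for Fezf2 in C57 pool 2 (0.26 and 0.28), and steep lines that they did not, as for Six3 in MF1 pool 2 (0.34 and 3.38).

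The inbred and the outbred mice were compared because gene expression can depend on the strain. No member differed in its ratio between MF1 and C57, and no probe did in the limma fit: 0 of 11855, or 0%, passed at an adjusted p under 0.05, the smallest adjusted p was 0.999, and 282, or 2.38%, had an unadjusted p under 0.05, with 0 of the 7 among them. MF1 minus C57 was negative for 6 of the 7 and ranged between -0.37 for Fezf2 and 0.32 for Six3. Within MF1 alone 0 probes, or 0%, passed and 778, or 6.56%, had an unadjusted p under 0.05. Within C57 alone 0 probes, or 0%, passed and 218, or 1.84%, had an unadjusted p under 0.05. The 7 members had none in either strain.

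With centring, Lhx2 was the only member whose strains did not overlap. It had 0.03 to 0.18 in the MF1 pools and 0.25 to 0.65 in the C57 pools. Of the 8924 probes measured in 5 pools, 1116, or 12.5%, had strains that did not overlap, so 1 of 6 such members is close to the background. Without centring, the strains of Emx2, Fezf2 and both Pax6 probes did not overlap either, with C57 the higher one. Emx2 had at most 0.21 in MF1 and at least 0.24 in C57, and Fezf2 0.55 and 0.61. Probe 1 of Pax6 had 0.1015 and 0.103, and probe 2 had 0.002 and 0.21. No share over all probes was computed without centring. The limma estimate of Lhx2 was 0.09 ± 0.16 in MF1 and 0.45 ± 0.19 in C57 (SE), and MF1 minus C57 was -0.36 ± 0.25 (adjusted p = 0.999). Fezf2 had 0.16 ± 0.24 in MF1 and 0.53 ± 0.29 in C57, and on single arrays it was positive on 3 of 6 MF1 arrays and 4 of 4 C57 arrays, the same C57 count as for Lhx2. With centring, probe 2 of Pax6 was positive on 0 of 6 MF1 arrays and 3 of 4 C57 arrays. Some of these MF1 values lay close to 0, at -0.055, -0.017 and -0.016, and they were positive without centring. The C57 arrays then ranged between -0.31 and 0.74. No share of all probes with such counts was computed. The centred estimates of probe 2 were -0.18 ± 0.17 in MF1 and 0.12 ± 0.21 in C57, with a difference of -0.30 ± 0.27 (adjusted p = 0.999). Six3 had 0.68 ± 0.50 in MF1 and 0.37 ± 0.61 in C57. Its MF1 value was 0.09 without MF1 pool 2 and 1.42 without MF1 pool 1 (adjusted p = 0.125 by limma), and its C57 value was 0.03 without C57 pool 1 and 0.71 without C57 pool 2.

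Within the same pool the members can be read against all probes. In MF1 pool 1 their median was -0.12 with 2 of 7 positive, in MF1 pool 2 it was -0.14 with 2 of 6 positive, and in MF1 pool 3 it was 0.09 with 4 of 7 positive. All 7 were positive in C57 pool 1, where they ranged between 0.25 and 0.79 with a median of 0.58, while in C57 pool 2 their median was -0.02 and 3 of 7 were positive. Among all tested probes the share of positive values was 51.2%, 53.4% and 52.5% in MF1 pools 1 to 3, 61.6% in C57 pool 1 and 46.5% in C57 pool 2. In C57 pool 1, 28.1% of all probes were at or above the lowest member. Every member was higher in C57 pool 1 than in C57 pool 2, by 0.27 to 0.84, as were 60.2% of all tested probes. Of all tested probes 30.6% were higher by at least 0.27. This order of the C57 pools depends on the centring, since their deposited medians were -0.17 for pool 1 and 0.37 for pool 2. Without it, only 3 of 7 members were higher in pool 1, the other 4 were higher in pool 2, and all 7 were positive in both, at 0.07 to 0.61 in pool 1 and 0.10 to 0.64 in pool 2. With it, Emx1, Emx2 and both Pax6 probes had ratios between -0.27 and -0.02 in C57 pool 2, and their positive C57 estimates rest on pool 1.

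**Figure D4:**
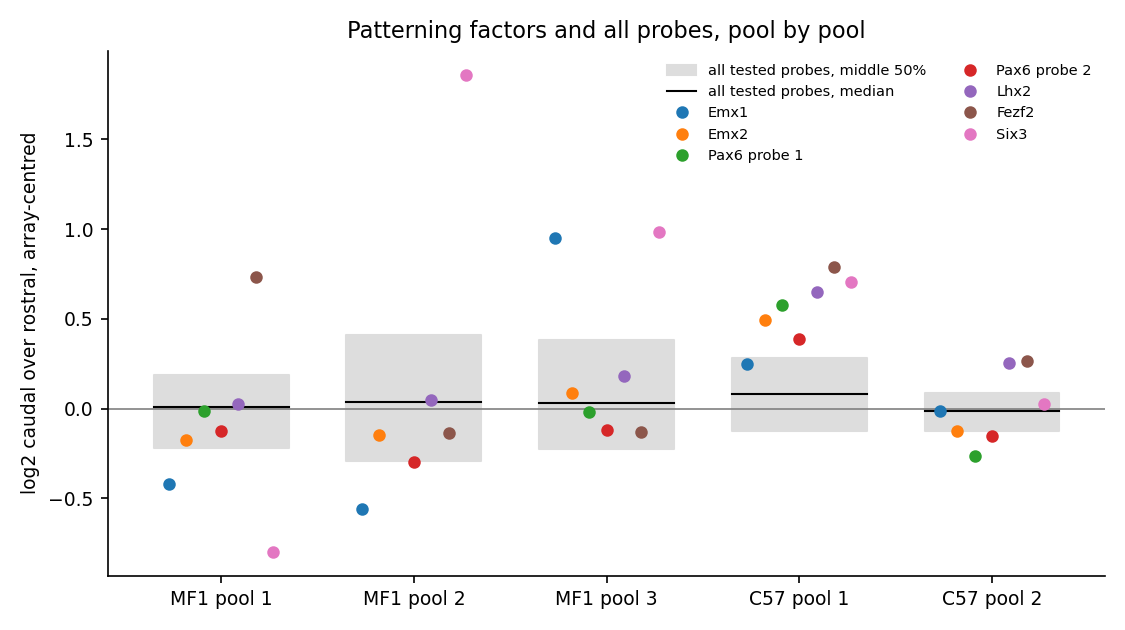
Log2 caudal over rostral ratio of the member probes (coloured points, vertical axis, array-centred) in each pool, beside the interquartile range of all tested probes (grey box) and their median (black line). In C57 pool 1 all 7 members lie above 0, at 0.25 to 0.79, while in C57 pool 2 they lie between -0.27 and 0.27.

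Lists of other genes known from the same tissue and its neighbours were read beside the members, each described by its own count of probes on either side of 0. Of all 11855 tested probes, 7018 were on the caudal side, with a median of 0.04. Partners of the members in area patterning had 12 probes of 17 on the caudal side with a median of 0.13 (13 of 22 listed genes tested), and 2 had an unadjusted p under 0.05. These were both probes of Nr2f1, at 1.80 ± 0.28 (limma SE, adjusted p = 0.605) and 0.51 ± 0.17, and the next was Tcf4, a helix-loop-helix gene, at 0.25 ± 0.14. Genes of pallial progenitors and young neurons had 10 of 17 probes on the caudal side, with a median of 0.03. The proneural gene Neurod1 was at 0.69 ± 0.13, the radial glia gene Slc1a3 was at -0.59 ± 0.14 with 1 probe and -0.20 ± 0.40 with another, and the radial glia gene Fabp7 was at -0.34 ± 0.16. These had the smallest p of a mixed list, in which the progenitor genes Nes at 0.01 ± 0.13, Vim at 0.03 ± 0.20 and Hes5 at 0.34 ± 0.25, named after their values were seen, lay at or above 0. No probe of any list passed at an adjusted p under 0.05.

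Relatives of the members by gene family had 4 of 11 probes on the caudal side with a median of -0.07 (10 of 22 listed genes tested). Pax4 at -0.90 ± 0.32, Pax8 at -0.68 ± 0.32 and Pax5 at -0.23 ± 0.22, relatives of Pax6 measured in 4 pools each, had the smallest p of the list, from 0.041 to 0.360 before adjustment. For Pax4 the value was -1.69 in MF1 and -0.12 in C57. The smallest adjusted p of the family list was 0.980.

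Markers of territories that border the neocortex were read in the same way. Genes of the ventral telencephalon had 3 of 12 probes on the caudal side with a median of -0.28, and 3 of the 12 had an unadjusted p under 0.05, all on the rostral side. These were Dlx2 at -0.81 ± 0.15 and Dlx1 at -1.04 ± 0.27, homeobox genes of interneuron precursors, and Ebf1 at -0.69 ± 0.15. By strain, Dlx2 was at -1.59 in MF1 and -0.04 in C57, and Dlx1 at -1.70 in MF1 and -0.38 in C57, and the adjusted p of MF1 minus C57 was 0.999 for both. The ventral probes on the caudal side were Dlx6 at 0.19 ± 0.15, Gsx2 at 0.11 ± 0.15 and a probe of Lhx6 at 0.31 ± 0.54. Genes of the cortical hem and choroid plexus had 8 of 11 probes on the caudal side with a median of 0.22, and 3 of the 11 had an unadjusted p under 0.05, all on the caudal side. The choroid plexus gene Ttr was at 1.63 ± 0.16 (adjusted p = 0.321), the hem gene Rspo3 at 0.94 ± 0.12 and the hem ligand Wnt3a at 0.42 ± 0.13. The probes of this list below 0 were Kcne2 at -0.39 ± 0.33, Wnt8b at -0.09 ± 0.34 and Bmp7 at -0.001 ± 0.22. The eye field and diencephalon, where Six3, Pax6 and Lhx2 are also known to be expressed, had 4 of 8 probes on the caudal side, with a median of 0.02, and its probes of smallest p, Mitf at -0.20 ± 0.20, Tcf7l2 at -0.14 ± 0.14 and Six6 at -0.18 ± 0.20, had unadjusted p from 0.359 to 0.396. The part that these territories have in the ratios of the members was not tested.

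Fibroblast growth factor ligands of the rostral signalling centre, with their receptors and feedback targets, had 3 of 11 probes on the caudal side with a median of -0.14. Of the 11, 5 had an unadjusted p under 0.05 on the rostral side and 1, the receptor gene Fgfr2 at 0.45 ± 0.17, on the caudal side. Spry1 was at -1.34 ± 0.15, Etv1 at -1.46 ± 0.14 and Dusp6 at -1.12 ± 0.15 (limma SE, adjusted p from 0.321 to 0.365). The ligands lay near 0, Fgf8 at -0.04 ± 0.13 and Fgf17 at 0.08 ± 0.19. Targets with a pair of probes gave unlike values, -0.47 and 0.10 for Spred1 and -0.48 and -0.14 for Etv5. The members' estimates reached 0.52 at most, for Six3. The interval of Emx2, -0.31 to 0.41, held neither Nr2f1 at 1.80 nor Spry1 at -1.34. These are extreme marks, and 1.80 is the highest estimate of all 11855 tested probes. The other probe of Nr2f1, at 0.51, lay just past this interval and inside that of Emx2 in C57, which reached 0.74. No test compared Emx2 with these genes.

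**Figure D5:**
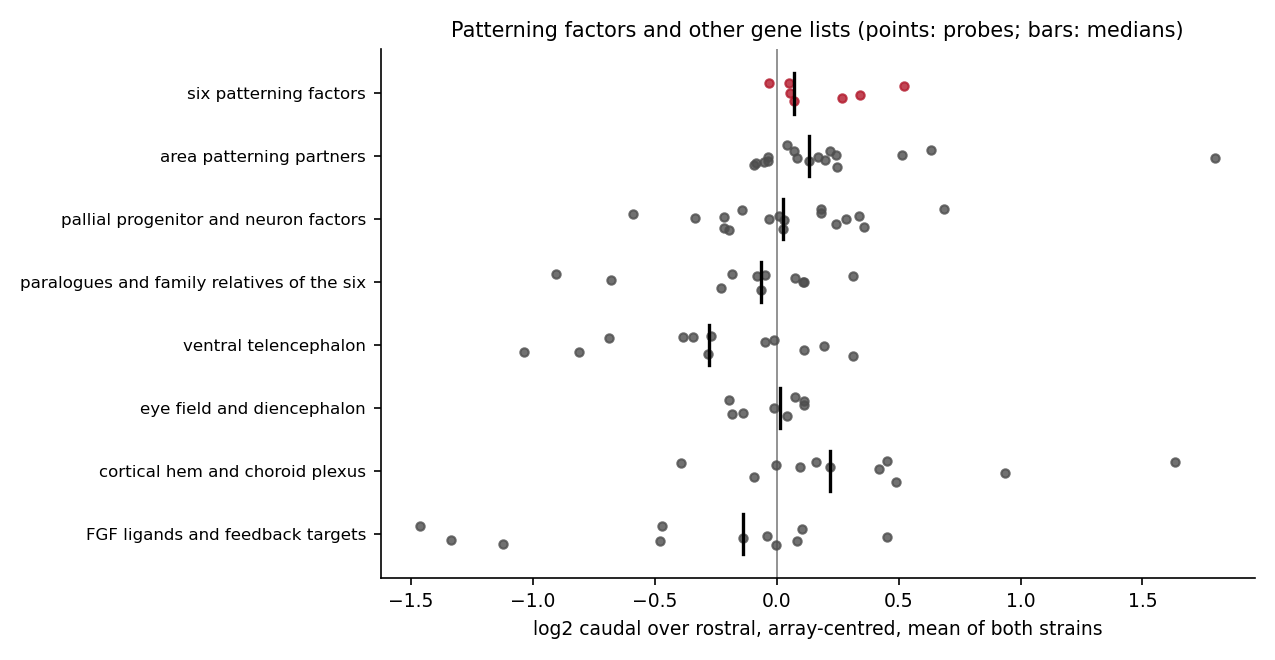
Estimates over both strains (log2 caudal over rostral, horizontal axis, array-centred) of the 7 member probes (red) and of the probes of 7 other gene lists (grey), with a bar at the median of each list. The members lie between -0.03 and 0.52, and the far points are Nr2f1 (1.80), Ttr (1.63), Etv1 (-1.46) and Spry1 (-1.34).

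The probes whose pool values lay nearest to those of each member were named by root mean square difference over the pools, with no test. For Fezf2 these were Hey1, a Notch effector gene, at 0.075, and Neurog2, a proneural gene of the pallium, at 0.109 over 5 pools, where the median probe was at 0.558. Hey1 had 0.76, 0.01 and -0.16 in the MF1 pools and 0.84 and 0.33 in the C57 pools. Neurog2 had 0.57, -0.25 and -0.26 in the MF1 pools and 0.83 and 0.28 in the C57 pools. Both thus had the same high and low pools as Fezf2, with MF1 pool 1 and C57 pool 1 at the top.

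For Lhx2 the nearest were Wdr31 at 0.077 and Mrpl14 at 0.087, for Emx1 Pop5 at 0.083 and Npdc1 at 0.125, and for Emx2 Pcf11 at 0.060 and Cox19 at 0.075, each over 5 pools. For Pax6 they were Cct3 at 0.033 and Cenpf at 0.048 with probe 1 over 4 pools, and Crtc3 at 0.050 and Mir124-2hg at 0.052 with probe 2 over 5 pools. Six3 had no such close neighbour: Ncstn at 0.280 and Zfp28 at 0.283 were the nearest over 5 pools, against a median of 1.06. With so few pools and all single-symbol probes among the 8924 to choose from, a near neighbour is a description only.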

How the data were processed

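The values deposited by the authors are log2 channel ratios of 10 arrays, as read from their range and signs. Trizol was used to extract RNA, per the labels, and the SMART system to amplify the cDNA, per the series' design text. Scanner, background correction, normalization and the build behind the probes: not given in the sources used here. While the design text names 3 sets for each strain, the C57 samples used here are of 2 pools.

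Values at the ceiling of 16.61 (436 values) and null values were treated as missing, and 232 Gapdh control spots were left out. Arrays were turned to caudal over rostral and centred on their median, because the deposited pool medians ran from -0.20 to 0.37, as wide as most ratios of the members; not centring is an alternative. The 2 arrays of a pool were averaged to 1 replicate. Testing a probe required both dye orders in 2 or more pools of MF1 and of C57. Of 21766 probes, 16632 had 1 gene symbol, 139 several and 4995 none.

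limma 3.58.1 in R 4.3.3 (lmFit, eBayes) fitted a coefficient for each strain, with two-sided tests and Benjamini-Hochberg adjustment over the 11855 tested probes at a threshold of 0.05. The fit had 2.58 prior degrees of freedom and 3 residual ones with 5 pools. The p-values measure the spread between these pools. The procedure was tested on simulated data. Members and lists were chosen with earlier results of these data known. Named were all member probes, the 3 tested probes of smallest p in each list, and the 2 probes nearest to each member by root mean square difference. The nearest were taken among single-symbol probes measured in 5 pools. Neurog2 was also on a list. Other probes of the lists were named after their values were seen. Arrays other than centred, other filters, single dye orders, other models and leaving out each pool were tried as alternatives. Python 3.11.15 with matplotlib 3.10.9 drew the figures.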

Additional observations from a re-analysis of the deposited data

Results flagged for a closer look

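Probe 2 of Pax6 had a value of 0.39 in C57 pool 1, which stood apart from the other 4 pools, all between -0.30 and -0.12. Without centring of the arrays it did not, at 0.21 in both C57 pools. The gap to the nearest pool was 0.742 of the whole range over the 5 centred pools. Chance gives such a gap in about 1 of 20 groups, and 7 probes were examined.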

How the results depend on the processing

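No member passed an adjusted p under 0.05 in any of 514 values under the alternatives, where the smallest adjusted p was 0.125. For the mean of both strains, Lhx2 (0.17 to 0.37), Fezf2 (0.20 to 0.47) and Six3 (0.23 to 0.89) kept a positive ratio in 19 of 19 alternatives. Their unadjusted p by limma was 0.077, 0.125 and 0.238 in the main setting. The smallest over the alternatives was 0.028 for Lhx2 and 0.011 for Fezf2. Both came from the dye-term fit without centring, which was chosen after seeing the data. Arrays scaled to the same spread, a setting not chosen that way, gave an unadjusted p by limma of 0.028 for Lhx2. The same setting gave 0.045 for Fezf2, and the adjusted p was 0.727 for Lhx2 and 0.803 for Fezf2. For Six3 the smallest unadjusted p was 0.010, without MF1 pool 1, the only pool where Six3 was negative. Over all probes, the count of calls was 0 in most settings. Scaling the arrays to the same spread gave 1 call for both strains and 2 for C57. The 10 arrays with a dye term and the pool as a random effect (within-pool correlation 0.306) gave 8 for both strains and 2 for C57, and the same fit without centring, chosen after seeing the data, gave 1 for both strains. None of these calls was a member, and the cause of the differences was not tested.

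Signs near 0 turned. For the mean of both strains, probe 2 of Pax6 became 0.019 without centring, 0.019 with the dye term and no centring, and 0.17 with only the arrays that had caudal RNA in Cy5; probe 1 became -0.24 with only those arrays and -0.0041 with both Pax6 probes averaged. Emx1 became -0.51 with only the arrays that had rostral RNA in Cy5. Within MF1, Emx1 became 0.031 with scaled arrays, 0.89 with caudal RNA in Cy5 and 0.13 with pool weights, Emx2 0.17 with caudal RNA in Cy5, and probe 1 of Pax6 0.32 with rostral RNA in Cy5. Within C57, probe 1 of Pax6 became -0.14 with caudal RNA in Cy5, and Emx1 became -0.11 and probe 2 of Pax6 -0.13 with rostral RNA in Cy5. MF1 minus C57 became -0.014 for Six3 with scaled arrays, 0.54 for Emx1 and 0.17 for Emx2 with caudal RNA in Cy5, and 0.016 for Emx1 with pool weights. The cause was not tested.

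Leaving out 1 pool at a time turned values that lie near 0 as well. A strain left with 1 pool was then assumed to vary like the other. For the mean of both strains, the values ranged between -0.19 (without MF1 pool 3) and 0.19 for Emx1, between -0.10 (without C57 pool 1) and 0.21 for Emx2, between -0.14 (without C57 pool 1) and 0.28 for probe 1 of Pax6, and between -0.17 and 0.10 (without C57 pool 2) for probe 2. Within MF1 they ranged between -0.49 and 0.27 for Emx1, between -0.13 (without MF1 pool 1) and 0.30 for Fezf2, and between 0.09 (without MF1 pool 2) and 1.42 for Six3. Within C57, where the lower value leaves out pool 1 and the higher one pool 2, they ranged between -0.015 and 0.25 for Emx1, -0.13 and 0.49 for Emx2, -0.27 and 0.58 for probe 1 of Pax6, -0.16 and 0.39 for probe 2, and 0.03 and 0.71 for Six3. MF1 minus C57 ranged between -0.61 and 0.15 for Emx1, -0.57 and 0.048 for Emx2, -0.59 and 0.25 for probe 1 of Pax6, and -0.27 (without MF1 pool 2) and 1.06 for Six3.

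With the pool number as a replicate block, MF1 minus C57 gave 0 calls (570 probes at an unadjusted p under 0.05), and the member values ranged between -0.61 for Emx1 and 0.17 for Six3, with the same signs. Samples with the same number had correlations of deviations of 0.149 and -0.02 over 8924 probes, and the number marks no shared litter. The small number of pools and the low correlation between the 2 arrays of a pool limit all values, and signal over background is not known here.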
